A study of Homo sapiens with 6 samples.

Results

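The genes described here are 9 members of 2 linked systems, the pentose phosphate pathway and the targets of the transcription factor NRF2: PGD, TKT, TALDO1, TXNRD1, NQO1, GCLM, GCLC, HMOX1 and SRXN1. They are 9 of the 19775 genes the array names, read through every probe set (a set of oligonucleotides against the same transcript) that the platform's annotation gives to these symbols alone, 20 of 54675. The 9 genes were chosen by pathway and with the log2 differences between the knockdown and control arrays already known, so the differences between the groups in these 9 genes are given as a description and support no test.

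The arrays measured total RNA of the breast cancer line MDA-MB-231, which lacks estrogen, progesterone and HER2 receptors, grown in L-15 medium with serum. The 3 samples of the knockdown group stably expressed a MYOSIN10 shRNA, a short hairpin RNA that targets MYO10, the gene of an unconventional myosin of filopodia. The 3 samples of the control group stably expressed a scramble shRNA, so every sample carried a hairpin. The hairpin sequences, the number of hairpins or clones and whether the numbered samples were separate cultures are not stated in the labels, so p-values here measure only the spread between the samples, and that spread may be technical.

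The pentose phosphate pathway draws glucose 6-phosphate away from glycolysis. Its oxidative branch makes NADPH, the reducing agent that keeps glutathione and thioredoxin reduced and feeds lipid synthesis, and its non-oxidative branch exchanges carbon between sugar phosphates to supply ribose for nucleotides or to return carbon to glycolysis. NRF2, encoded by NFE2L2, is held down by KEAP1, which presents it for destruction. Under oxidants or electrophiles NRF2 escapes, pairs with a small MAF protein and binds antioxidant response elements in genes for glutathione synthesis, thioredoxin reduction, quinone and heme breakdown and NADPH supply, pentose phosphate enzymes among them. BACH1 is a repressor that occupies many of the same elements.

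PGD was the member with a clear difference. Its brightest probe set stood 1.77-fold higher in the MYOSIN10 shRNA cells, all 3 of those arrays lying above all 3 scramble arrays, while the brightest probe sets of TKT, TALDO1, TXNRD1, NQO1, GCLM, HMOX1 and SRXN1 differed by at most 0.14 on the log2 scale in either direction with overlapping groups. GCLC lay between, at 1.38-fold, also with groups that did not overlap. By brightest probe set, groups did not overlap in 2 of the 9 genes and in 19.8% of all genes. Among the surrounding genes, 4 of 80 rose and 0 fell at a Benjamini-Hochberg adjusted p under 0.05 (limma): NADK, GPX3, GSTM3 and NQO2. At that threshold 1.05% of all genes were higher and 0.339% lower. The 4 calls became 0 without MYOSIN10 shRNA array 1 or 3, without scramble array 1 or 3, and without the variance trend.

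NRF2 acts through the antioxidant response element, so the stretches of sequence upstream of the members with the largest differences and of GCLM, the partner subunit of GCLC, are shown. The sequences are RefSeq's, build GRCh38.p14, each the 250 bases before the annotated start of the gene, 5′ to 3′ on the gene's strand, and capitals mark a match to the element's core, TGACNNNGC, on either strand. PGD lies on chromosome 1 (chr1:10398814-10399063, plus strand), GCLM on chromosome 1 (chr1:93909431-93909680, minus strand) and GCLC on chromosome 6 (chr6:53545102-53545351, minus strand).
PGD: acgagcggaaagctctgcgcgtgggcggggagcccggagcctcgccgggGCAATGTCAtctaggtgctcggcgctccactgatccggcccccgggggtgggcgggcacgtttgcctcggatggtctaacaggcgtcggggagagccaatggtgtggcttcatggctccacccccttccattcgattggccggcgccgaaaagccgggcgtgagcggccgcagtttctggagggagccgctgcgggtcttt
GCLM: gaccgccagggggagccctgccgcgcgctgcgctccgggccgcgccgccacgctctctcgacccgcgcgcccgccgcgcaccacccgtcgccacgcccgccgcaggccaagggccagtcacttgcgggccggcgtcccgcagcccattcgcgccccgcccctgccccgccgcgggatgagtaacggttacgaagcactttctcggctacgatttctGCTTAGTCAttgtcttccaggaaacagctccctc
GCLC: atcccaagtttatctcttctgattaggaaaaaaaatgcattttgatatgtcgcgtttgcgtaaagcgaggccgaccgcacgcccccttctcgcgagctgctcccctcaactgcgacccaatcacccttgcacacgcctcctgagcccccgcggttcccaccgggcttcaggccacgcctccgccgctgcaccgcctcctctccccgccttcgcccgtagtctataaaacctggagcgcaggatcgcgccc

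The core matched PGD at 201 to 193 bases before the start and GCLM at 34 to 26 bases before it, both on the opposite strand, and it was not found in the GCLC window. TXNRD1 has 2 annotated starts with 3 matches in all. One lay 99 to 91 bases before the first start, on the gene's strand. Another lay 102 to 94 bases before the second start, on the opposite strand. Both are shown with 15 bases on either side (chr12:104215665-104215703 and chr12:104286915-104286953, both printed on the plus strand, that of the gene). The other, not shown, also lay on the opposite strand, from 8 bases before the first start to the start itself.
TXNRD1 first start: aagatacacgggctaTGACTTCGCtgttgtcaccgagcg
TXNRD1 second start: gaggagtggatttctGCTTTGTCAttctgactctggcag

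Over the full window of 300 bases, 250 before and 50 after the start, 4 of the 9 member promoters held the core (44.4%), against 13.3% of all 35116 promoters. TXNRD1 entered that count through 2 promoters. By gene, where a gene with several starts has several chances, these were 3 of 8 member genes with an entry (PGD, TXNRD1 and GCLM) and 24.7% of the 73 surrounding genes with one. A share by gene over all genes was not counted, so the figures by gene cannot be set against the 13.3%, which counts promoters. The core was the sole motif searched. The windows are short and many known elements lie further upstream, so a missing match says only that these letters are not in the window. Of the 3 genes with a match, PGD differed between the groups by 0.82, TXNRD1 by -0.01 and GCLM by 0.06 on the log2 scale.

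Signals below are log2(signal + 16), where the signal is the authors' array value on a linear scale and the added 16 damps noise at low signal. Differences are MYOSIN10 shRNA minus scramble shRNA on that scale, with the standard error (SE) of a limma fit over all 33370 probe sets kept by a filter on low signals. That filter kept 17 of the 20 member probe sets, at least 1 for each of the 9 genes. Each gene stands as its brightest kept probe set, by the mean of all 6 arrays. Signals of different probe sets are not comparable as amounts of RNA, because each binds with its own strength.

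The 6 arrays were alike, with correlations between 0.973 and 0.982 over all kept probe sets, and scramble array 2 lay nearer to the knockdown arrays than the other scramble arrays did on the first principal component (3.46, against 22.2 to 33.2 for the MYOSIN10 shRNA arrays and -43.2 and -40.0 for scramble arrays 1 and 3). MYO10, the target, stood at 54.2% of its scramble level, with a log2 fold change of -0.88 ± 0.17 (SE; limma adjusted p = 0.0318), and its brightest probe set was below every scramble array on all 3 knockdown arrays. Of its other 4 kept probe sets, which did not pass, 3 gave -0.58 to -0.84, 1 of them with overlapping groups, and 1 gave 0.31 ± 0.24 (SE) with overlapping groups. Its call was lost without MYOSIN10 shRNA array 1 (adjusted p = 0.15) or 3 (0.156) or scramble array 1 (0.0835) or 3 (0.17). Of the markers chosen for the line, VIM, CD44, EGFR, CAV1 and MSN read between 11.9 and 14.9 on every array. Of those that should be dim, PGR and CDH1 had 0 kept probe sets and ESR1 did not exceed 7.33, while ERBB2 read 8.84 to 9.11 and GATA3 9.82 to 10.38. The blood and fibroblast markers PTPRC and PDGFRA had 0 kept probe sets, and PECAM1 of endothelium reached 7.15.

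PGD encodes 6-phosphogluconate dehydrogenase, the last enzyme of the oxidative branch, which releases carbon dioxide and makes NADPH and ribulose 5-phosphate. Its brightest probe set, 201118_at, read 11.88, 11.81 and 11.76 on MYOSIN10 shRNA arrays 1 to 3, against 11.00, 11.08 and 10.90 on scramble arrays 1 to 3. The lowest knockdown array thus lay well above the highest scramble array, and the spread within each group was small, with means of 11.82 ± 0.06 and 10.99 ± 0.09 (SD, n = 3 each). The difference was 0.82 ± 0.09 (SE), with a 95% interval of 0.64 to 1.01. Over the 17 other ways of processing tried, among them leaving out each array, it ran from 0.78 to 0.87.

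The other 2 probe sets of PGD were dim and did not move alike. Probe set 1560943_s_at read 4.87, 4.25 and 5.68 on the MYOSIN10 shRNA arrays, against 5.30, 6.87 and 6.17 on the scramble arrays. Its groups overlapped, and its difference of -1.18 ± 0.50 (SE) ran opposite to that of the bright probe set. It reached the filter level on 1 knockdown array and 2 scramble arrays and so was kept by the narrowest margin the filter allows. Probe set 1560942_at was not kept and read 6.11, 6.21 and 4.85 on the MYOSIN10 shRNA arrays, against 4.66, 4.54 and 5.50 on the scramble arrays. A zero signal reads 4 on this scale, so both lay close to the floor and neither difference has a firm size.

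**Figure D1:**
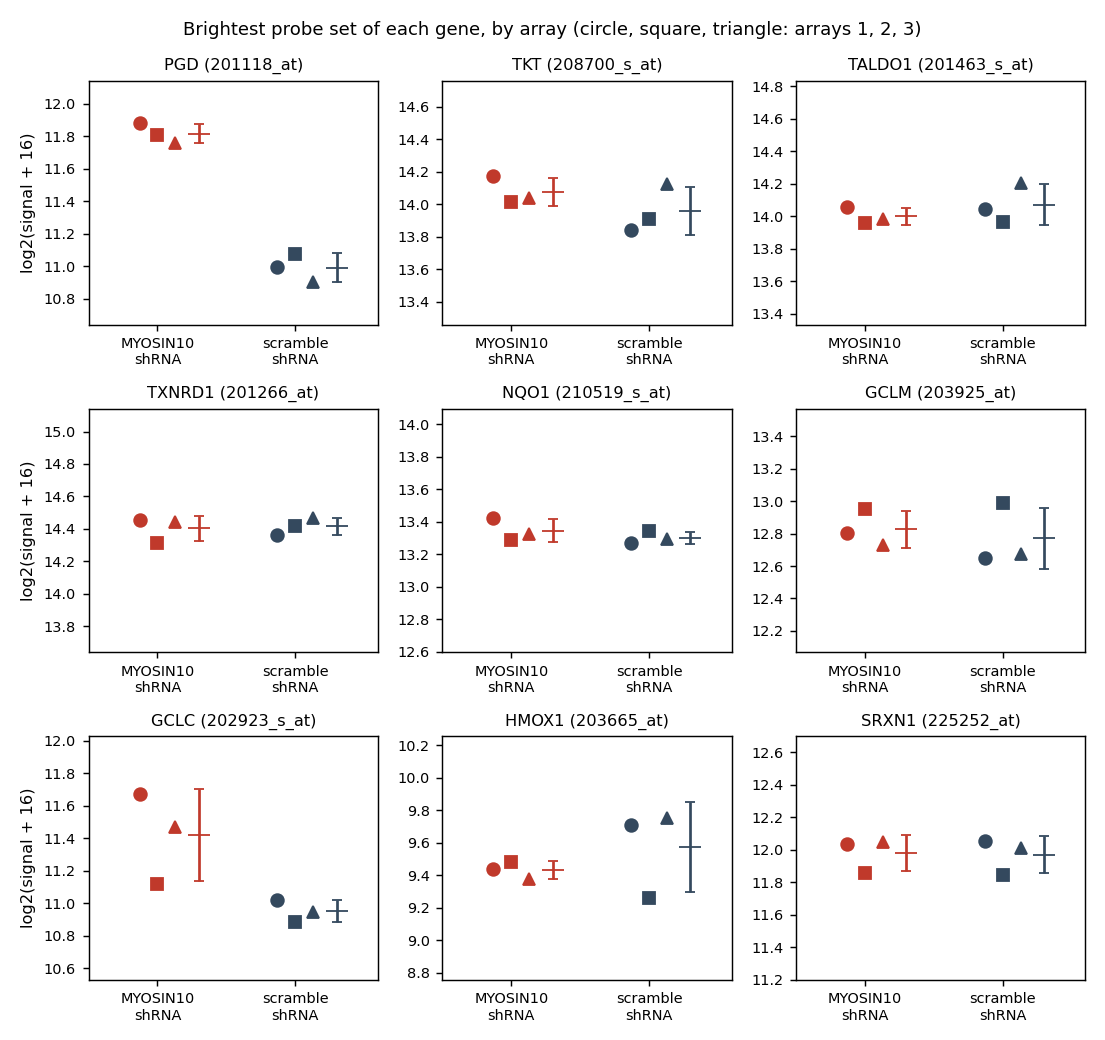
Log2(signal + 16) of the brightest probe set of each of the 9 genes on every array, MYOSIN10 shRNA in red at left and scramble shRNA in dark blue at right (circle, square and triangle for arrays 1, 2 and 3), with the group mean and SD (n = 3) beside the points; each panel spans 1.5 log2 units (its level differs by panel). PGD and GCLC are the panels whose groups do not overlap.

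The non-oxidative branch showed no comparable shift. TKT encodes transketolase, which moves carbon pairs between sugar phosphates. Its brightest probe set, 208700_s_at, read 14.17, 14.01 and 14.04 on the MYOSIN10 shRNA arrays, against 13.84, 13.91 and 14.12 on the scramble arrays. Scramble array 3 lay inside the knockdown range, and the difference was 0.12 ± 0.08 (SE; 95% interval -0.06 to 0.30). The second TKT probe set, 208699_x_at, read at least 13.12 on the MYOSIN10 shRNA arrays, against at most 13.09 on the scramble arrays. Those groups did not overlap, by a margin far smaller than that of PGD, and the difference was 0.14 ± 0.07 (SE). The dim probe set 228205_at ranged from 6.12 to 7.58 on the MYOSIN10 shRNA arrays and from 5.93 to 7.39 on the scramble arrays.

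TALDO1 encodes transaldolase, the other carbon-exchanging enzyme of the branch, and has a single probe set. It read 14.06, 13.96 and 13.98 on the MYOSIN10 shRNA arrays, against 14.04, 13.96 and 14.21 on the scramble arrays. The groups overlapped, though scramble array 3 lay above every knockdown array, and the difference was -0.07 ± 0.08 (SE, 95% interval -0.24 to 0.09).

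GCLC and GCLM form glutamate-cysteine ligase, the rate-limiting enzyme of glutathione synthesis, GCLC as the catalytic and GCLM as the modifier subunit. GCLC probe set 202923_s_at read 11.68, 11.12 and 11.47 on the MYOSIN10 shRNA arrays, against 11.02, 10.88 and 10.95 on the scramble arrays. The groups did not overlap, but MYOSIN10 shRNA array 2 came within a short step of scramble array 1. The difference was 0.47 ± 0.12 (SE; 95% interval 0.20 to 0.74), and it was 0.62 without MYOSIN10 shRNA array 2 and 0.34 without MYOSIN10 shRNA array 1.

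The second kept probe set of GCLC, 202922_at, read 10.76, 10.53 and 10.56 with MYOSIN10 shRNA and 10.36, 10.28 and 10.43 with scramble shRNA. It separated the groups in the same direction with a smaller difference, 0.26 ± 0.10 (SE). Probe set 1555330_at was too dim to be kept, from 4.79 to 6.16 in the knockdown group and from 4.61 to 5.68 in the control group.

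GCLM did not follow its partner. Probe set 203925_at read 12.80, 12.95 and 12.73 on the MYOSIN10 shRNA arrays, against 12.65, 12.99 and 12.67 on the scramble arrays. The highest value of each group was that of array 2, and the difference was 0.06 ± 0.10 (SE; 95% interval -0.16 to 0.27). The other 2 GCLM probe sets, 236140_at and 234986_at, gave 0.12 ± 0.11 and 0.01 ± 0.13 (SE), with overlapping groups.

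TXNRD1 encodes cytosolic thioredoxin reductase, which spends NADPH to reduce thioredoxin. Probe set 201266_at read 14.45, 14.32 and 14.44 on the MYOSIN10 shRNA arrays, against 14.36, 14.42 and 14.47 on the scramble arrays. The 6 values were interleaved, with a difference of -0.01 ± 0.07 (SE; 95% interval -0.16 to 0.13). Probe set 1561080_at was dim on all arrays, at most 4.96 with MYOSIN10 shRNA and 5.30 with scramble shRNA, and was not kept.

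SRXN1 encodes sulfiredoxin, which repairs overoxidised peroxiredoxins. Its probe set, 225252_at, read 12.03, 11.85 and 12.05 on the MYOSIN10 shRNA arrays, against 12.05, 11.84 and 12.01 on the scramble arrays. Array 2 was the lowest of each group, and the difference was 0.01 ± 0.09 (SE; 95% interval -0.18 to 0.20).

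NQO1 encodes a quinone reductase that is widely used as a readout of NRF2 activity. Probe set 210519_s_at read 13.42, 13.29 and 13.33 on the MYOSIN10 shRNA arrays, against 13.27, 13.34 and 13.29 on the scramble arrays. The groups overlapped, and the difference was 0.04 ± 0.07 (SE; 95% interval -0.11 to 0.19). The other 2 probe sets of NQO1, 201468_s_at and 201467_s_at, gave 0.00 ± 0.09 and 0.07 ± 0.09 (SE).

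HMOX1 encodes heme oxygenase 1, which breaks down heme and is controlled by both NRF2 and BACH1. Its probe set, 203665_at, read 9.44, 9.48 and 9.37 on the MYOSIN10 shRNA arrays, against 9.71, 9.26 and 9.75 on the scramble arrays. Scramble array 2 was the lowest of the 6 and the other 2 scramble arrays the highest, so the groups overlapped through that array. The difference was -0.14 ± 0.14 (SE; 95% interval -0.44 to 0.16), and it was -0.30 without scramble array 2.

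**Figure D2:**
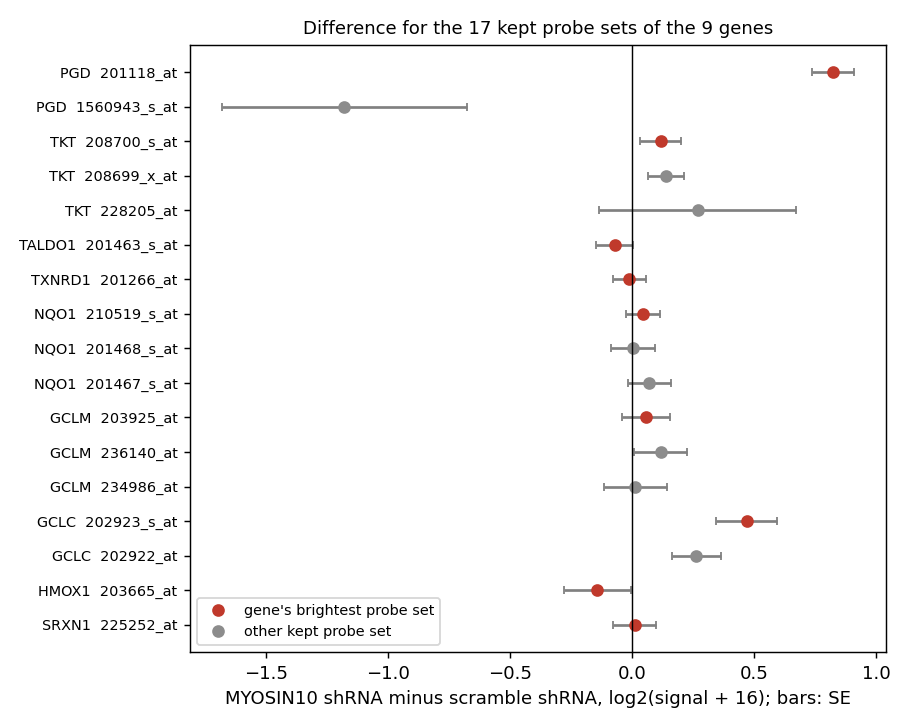
Difference between MYOSIN10 shRNA and scramble shRNA, log2(signal + 16), for the 17 kept probe sets of the 9 genes, with the SE of the limma fit as bars; red marks each gene's brightest probe set. PGD 201118_at stands at 0.82 and GCLC 202923_s_at at 0.47, the other red points lie between -0.14 and 0.12, and the dim PGD 1560943_s_at lies at -1.18.

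As a set, 13 of the 17 kept member probe sets had a positive difference and 4 a negative one, with a median of 0.06, against a median of -0.00 over all 33370 kept probe sets. By each gene's brightest probe set, 6 of 9 were positive with a median of 0.04, against 0.01 over all 14174 genes. At an adjusted p under 0.05 in the limma fit, 1 of the 17 probe sets, PGD 201118_at, was past the threshold, as were 1.06% of all kept probe sets (0.692% higher and 0.366% lower). By brightest probe set 1 of 9 genes was past it, against 1.39% of all genes. Groups without overlap were seen in 4 of the 17 probe sets and in 18.1% of all kept probe sets, and by brightest probe set in 2 of 9 genes and in 19.8% of all genes. Since the comparison itself led to the choice of these genes, nothing is read from these counts.

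The genes closest to PGD in pattern were found by centring each gene's brightest probe set on its 6-array mean and taking the mean absolute difference from PGD over the 6 arrays. The nearest were TMEM120A (0.058 log2 units), WDR77 (0.060), the formin FMNL2 (0.061), KCTD12 (0.064) and RAB42 (0.066). Their own differences between the groups ran from 0.71 for TMEM120A to 0.75 for FMNL2, with all 3 knockdown arrays above all 3 scramble arrays for each of the 5. None of the 5 belongs to the lists of surrounding genes. By construction of this measure, a gene with a difference close to that of PGD and a small spread within groups lies close to it.

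**Figure D3:**
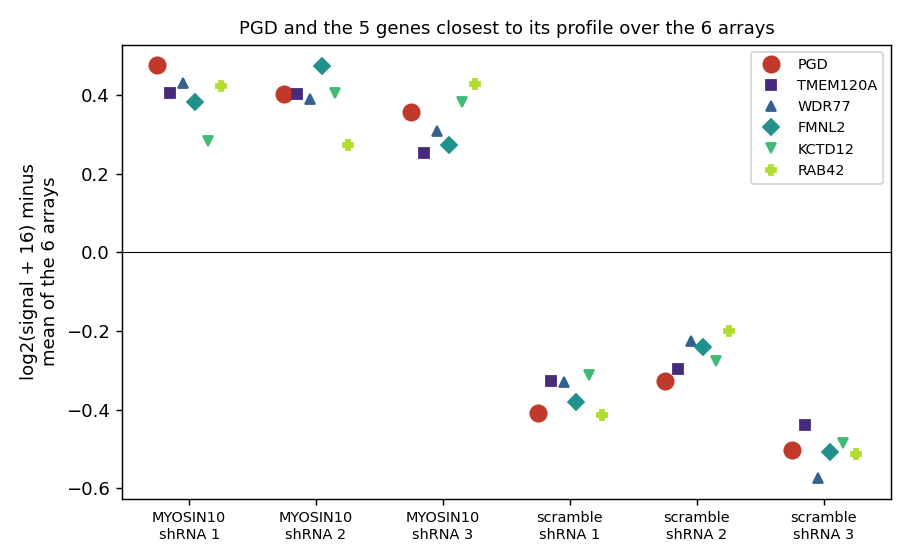
Log2(signal + 16) minus the 6-array mean on every array for PGD and the 5 genes closest to it, MYOSIN10 shRNA arrays at left and scramble shRNA arrays at right. For each of the 6 genes every MYOSIN10 shRNA array lies above 0 and every scramble array below it.

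The surrounding genes were taken from 7 lists of 89 genes that exclude the 9 members, of which 80 had a kept probe set, and the others were not analysed here. These lists too were drawn up with earlier results of these data known, so their counts describe the lists and are not independent evidence. In this comparison 4 of the 80 rose and 0 fell (limma adjusted p over all kept probe sets), against 1.05% of all genes higher and 0.339% lower. At an unadjusted p under 0.05 there were 23, 19 higher and 4 lower, against 15.1% of all genes, or 8.65% of all genes higher. The 4 calls became 0 without MYOSIN10 shRNA array 1 or 3 or scramble array 1 or 3. Without MYOSIN10 shRNA array 2 there were 2, GPX3 and IDH1, both higher. Without scramble array 2 there were 9, of which 7 were higher and 2 lower, AKR1B10 and MGST3. Both of these were also called lower without both arrays numbered 2, and MGST3 with the replicate block. MGST3, of the glutathione list, was named after its value was seen. The median difference of the 80 was 0.03, against 0.01 over all genes.

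The other pentose phosphate genes did not pass. Of 9 tested, 0 rose and 0 fell, 2 had an unadjusted p under 0.05 (against 15.1% of all genes) and the median difference was 0.02. RBKS, a ribokinase that feeds ribose into the pathway, read 9.03, 9.21 and 9.23 on the MYOSIN10 shRNA arrays, against 8.74, 8.78 and 8.81 on the scramble arrays (difference 0.38 ± 0.12 SE, limma adjusted p = 0.184). PRPS1, which turns ribose 5-phosphate into the precursor of nucleotides, stood at -0.18 ± 0.08 (SE, limma adjusted p = 0.337). The lactonase PGLS, which acts just before PGD, stood at 0.03 ± 0.11 (SE), and the isomerase RPIA and epimerase RPE, which act on its product, at -0.12 ± 0.11 and 0.02 ± 0.10 (SE). These 3 were chosen for their place in the pathway after their values were seen.

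Among 12 other genes of NADPH supply, NADK rose, 0 fell and 11 did not pass, where 1.05% of all genes were higher and 0.339% lower. NADK encodes the cytosolic NAD kinase, which makes NADP, the substrate that PGD reduces. It read 11.20, 11.18 and 11.21 on the MYOSIN10 shRNA arrays, against 10.63, 10.91 and 10.51 on the scramble arrays. The knockdown arrays were nearly identical and all above the scramble arrays, with a difference of 0.51 ± 0.11 (SE, limma adjusted p = 0.0442), and the other 4 kept NADK probe sets gave 0.33 to 0.68. The call was lost without any one of 5 arrays, with an adjusted p from 0.0886 without MYOSIN10 shRNA array 2 to 0.206 without scramble array 3, and it held without scramble array 2 (0.00267). It was also lost with a pseudocount of 1 (limma adjusted p = 0.0512), with each array centred on its median (0.0511), without a filter (0.0962) and without the variance trend (0.301), so it held in 8 of 17 alternatives.

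The list split in sign. It held 5 genes with an unadjusted p under 0.05, all higher, against 8.65% of all genes higher at that level. Of the 12, 7 had negative differences, so the median was -0.05. Besides NADK, the 5 were the NADP-dependent isocitrate dehydrogenases IDH2 at 0.51 ± 0.14 and IDH1 at 0.43 ± 0.13, the mitochondrial transhydrogenase NNT at 0.44 ± 0.14 and malic enzyme ME1, itself an NRF2 target, at 0.28 ± 0.09 (SE; limma adjusted p = 0.116, 0.158, 0.172 and 0.21). The folate enzymes MTHFD2 and MTHFD1 stood at -0.19 ± 0.09 and -0.07 ± 0.11 (SE). Apart from NADK, these genes were named after their values were seen.

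**Figure D4:**
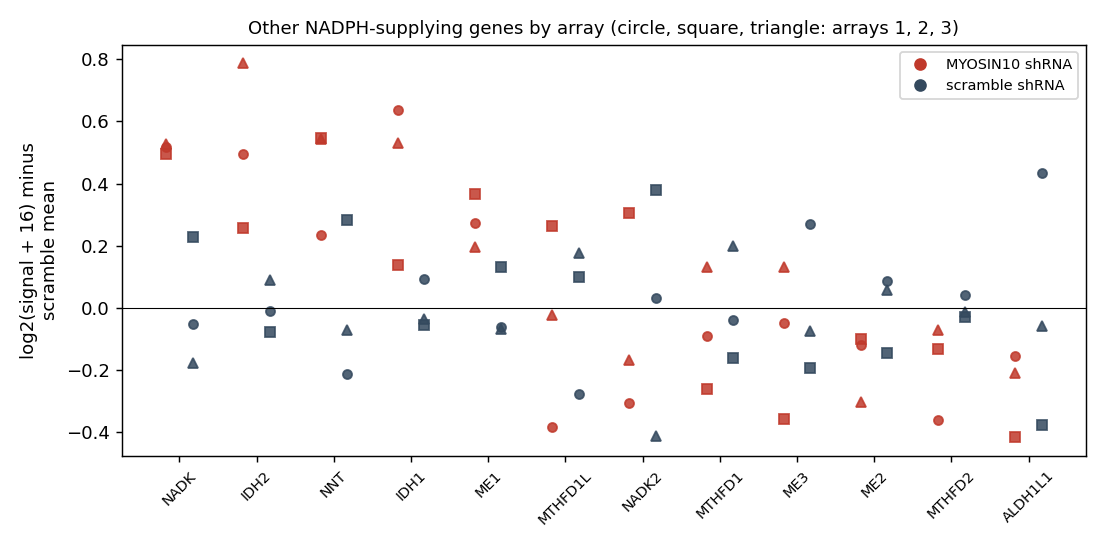
Log2(signal + 16) minus the scramble mean on every array for the 12 other genes of NADPH supply, MYOSIN10 shRNA in red left of scramble shRNA in dark blue, ordered by their difference. The 5 genes at left have positive differences, from 0.51 for NADK to 0.28 for ME1, and the other 7 have negative ones.

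NRF2 and its regulators did not pass, with 0 of 12 rising or falling and a median difference of 0.06. At an unadjusted p under 0.05 there were 2, against 15.1% of all genes. NFE2L2 read 13.03, 13.09 and 13.16 on the MYOSIN10 shRNA arrays, against 13.02, 13.05 and 12.96 on the scramble arrays. Those groups overlapped, with a difference of 0.08 ± 0.07 (SE, limma adjusted p = 0.696). KEAP1 read 11.35, 11.12 and 11.47, against 10.91, 11.10 and 11.04 with scramble shRNA (difference 0.30 ± 0.10 SE, limma adjusted p = 0.23). BACH1 stood at -0.16 ± 0.11 (SE, limma adjusted p = 0.609), and DPP3, which competes with NRF2 for KEAP1, at 0.32 ± 0.11 (SE, limma adjusted p = 0.224). DPP3 passed without scramble array 2 (adjusted p = 0.0387), and both DPP3 (0.0136) and KEAP1 (0.0149) passed without both arrays numbered 2.

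In the glutathione list, 2 of 17 genes rose, 0 fell and 15 did not pass, where 1.05% of all genes were higher and 0.339% lower. At an unadjusted p under 0.05 there were 6, 5 higher and 1 lower, against 15.1% of all genes, or 8.65% of all genes higher. The lower one was MGST3, at -0.29 ± 0.10 (SE, limma adjusted p = 0.238). GPX3, a secreted glutathione peroxidase, read 10.93, 10.86 and 10.82 on the MYOSIN10 shRNA arrays, against 10.37, 10.35 and 10.38 on the scramble arrays. The gap between the groups was larger than the spread within either, with a difference of 0.51 ± 0.09 (SE, limma adjusted p = 0.0187). A further kept probe set of GPX3 gave 0.39 ± 0.11 (SE) and did not pass (limma adjusted p = 0.119). The call of GPX3 was lost without MYOSIN10 shRNA array 1 (adjusted p = 0.125) or 3 (0.0814) or scramble array 1 (0.0936) or 3 (0.0957), and without the variance trend (0.212).

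GSTM3, a glutathione transferase, read 13.46, 13.30 and 13.23 on the MYOSIN10 shRNA arrays, against 12.94, 12.67 and 12.94 on the scramble arrays. Its difference was 0.48 ± 0.09 (SE, limma adjusted p = 0.0294), while its other, dimmer probe set gave -0.00 ± 0.13 (SE). The call was lost without any array but scramble array 2, with adjusted p from 0.067 without MYOSIN10 shRNA array 2 to 0.167 without MYOSIN10 shRNA array 1, and also without a filter (0.101) and without the variance trend (0.312). SLC7A11, the cystine importer that supplies glutathione synthesis and a classical NRF2 target, stood at 0.22 ± 0.09 (SE, limma adjusted p = 0.308), a gene named after its value was seen.

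The thioredoxin and peroxiredoxin list had 0 calls in 9 genes and a median difference of 0.00. At an unadjusted p under 0.05 there was 1, against 15.1% of all genes. That gene was the peroxiredoxin PRDX2, which read 13.82, 13.75 and 13.76 with MYOSIN10 shRNA and 13.31, 13.53 and 13.50 with scramble shRNA (difference 0.33 ± 0.08 SE, limma adjusted p = 0.064). It passed in 5 of 17 alternatives: with quantile normalization (adjusted p = 0.04), array weights (0.0237) or the replicate block (0.028), without scramble array 2 (0.0246) and without both arrays numbered 2 (0.0227). TXN2, mitochondrial thioredoxin, stood at -0.17 ± 0.09 (SE, limma adjusted p = 0.47). A further kept probe set of TXN2 gave -0.40 ± 0.11 (SE, limma adjusted p = 0.13), with every knockdown array below every scramble array. Thioredoxin itself, TXN, and PRDX1, both NRF2 targets and named after their values were seen, stood at 0.00 ± 0.06 and 0.01 ± 0.07 (SE).

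Of 17 detoxification and iron genes known as NRF2 targets or close relatives, NQO2 rose, 0 fell and 16 missed the threshold. Of all genes, 1.05% were higher and 0.339% lower at that threshold. At an unadjusted p under 0.05 there were 7, 5 higher and 2 lower, against 15.1% of all genes, or 8.65% of all genes higher. The median difference was 0.21. NQO2, a quinone reductase related to NQO1 that does not use NADPH, read 11.74, 11.85 and 11.64 on the MYOSIN10 shRNA arrays, against 11.24, 11.32 and 11.33 on the scramble arrays. The groups were well apart, with a difference of 0.45 ± 0.09 (SE, limma adjusted p = 0.029), while a dim second probe set gave 0.04 ± 0.47 (SE). The call was lost without any array but scramble array 2, with adjusted p from 0.0787 without MYOSIN10 shRNA array 3 to 0.156 without scramble array 1, and also without a filter (0.0578) and without the variance trend (0.266). The aldo-keto reductase AKR1B10 had the largest negative difference of the list, -0.75 ± 0.22 (SE, limma adjusted p = 0.153), opposite in sign to NQO2. The largest positive difference was that of OSGIN1, 0.53 ± 0.20 (SE, limma adjusted p = 0.264), with groups that did not overlap. Both were named after their values were seen. Of the 17 genes, 11 had positive differences and 6 negative ones.

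The 4 genes of superoxide and peroxide removal had 0 calls and 0 at an unadjusted p under 0.05. SOD3 stood at -0.39 ± 0.23 and catalase, CAT, at 0.15 ± 0.10 (SE; limma adjusted p = 0.51 and 0.592).

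**Figure D5:**
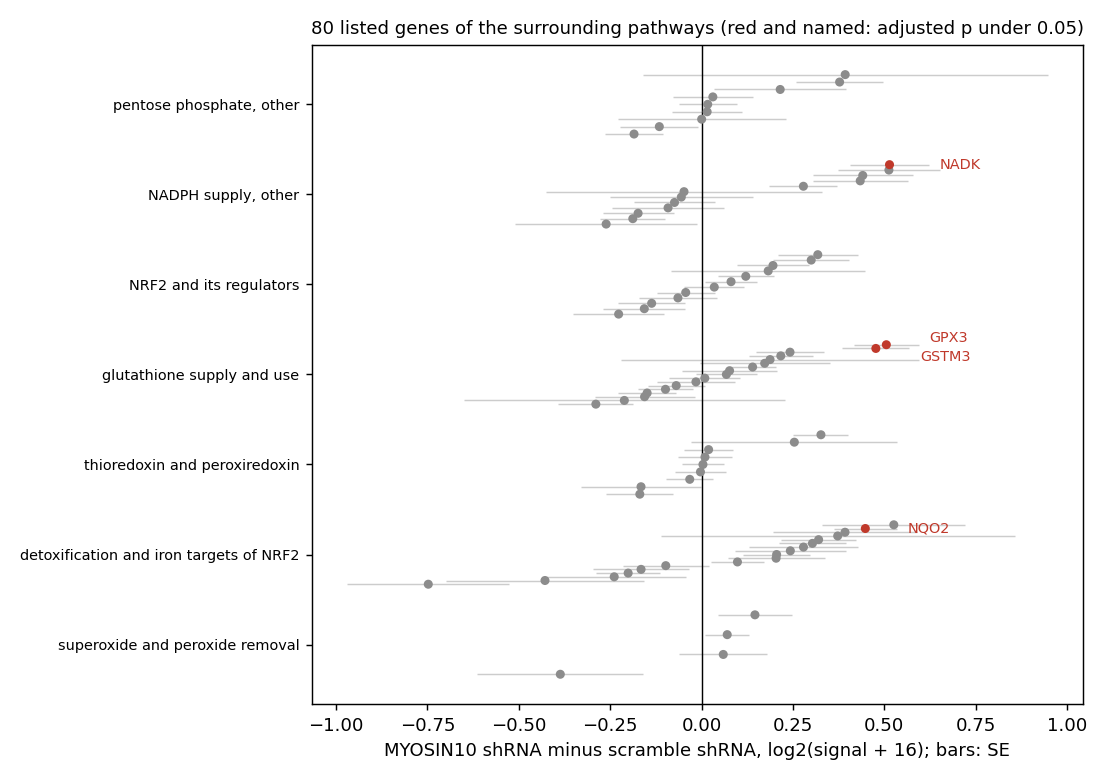
Difference between MYOSIN10 shRNA and scramble shRNA, log2(signal + 16), for 80 genes in 7 lists, each point a gene by its brightest probe set with the SE of the limma fit as a bar. The 4 genes past an adjusted p under 0.05, in red, are NADK, GPX3, GSTM3 and NQO2, between 0.45 and 0.51, and the other 76 run from -0.75 to 0.53.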

How the data were processed

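Total RNA from 6 MDA-MB-231 samples was hybridised to 1-colour Affymetrix arrays after 3′ in vitro transcription labelling, per the labels' protocols. Per the submitters' processing notes, the authors used MAS5, which summarises each array on its own; its version and scaling target are not stated. The authors deposited log2 signals: the log2 scale was worked out from the values, as the mean of the linear signals with 2% trimmed from each end was 500.1 on every array. Such scaling hides any change in RNA content per cell. Arrays have no read depth, and 3 arrays per group limit the precision.

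From these, log2(signal + 16) was taken, and a probe set was kept when 3 or more of the 6 arrays reached the 40th percentile of that array. Symbols came from the platform annotation, updated by Entrez number through RefSeq's GRCh38.p14 table. The comparison used limma 3.58.1 (R 4.3.3; group as sole term, variance trend, two-sided), with Benjamini-Hochberg adjustment over all 33370 kept probe sets. The steps were tested on simulated data. The rule for named genes took all members, MYO10, up to 4 called genes a list (in a list with none, 2 with the smallest p), NFE2L2, KEAP1, BACH1 and the 5 genes closest to PGD; it also held 1 gene that was not analysed here. Outside the rule, PGLS, RPIA, RPE, IDH1, IDH2, NNT, ME1, MTHFD1, MTHFD2, SLC7A11, MGST3, TXN, PRDX1, AKR1B10, OSGIN1 and TXNIP were named after their values were seen. Members and lists were chosen with earlier results of these data known. Promoters were searched and figures drawn with Python 3.11.15 and matplotlib 3.10.9. Alternatives changed the pseudocount, filter, scaling, variance model, array weights, replicate term, gene scope or arrays.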

Additional observations from a re-analysis of the deposited data

How the results depend on the processing

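The limma fit without the variance trend called 0 of all kept probe sets, 0 of the 80 list genes and 0 of the 17 member probe sets, with 3665, 14 and 2 at an unadjusted p under 0.05. Member probe sets past the threshold numbered 2 with array weights, with the replicate block and without both arrays numbered 2, and 1 to 2 without single arrays; the members were picked with this comparison known, so these counts only describe the settings and support nothing. List genes called numbered 1 without a filter, 8 with the replicate block, 12 without both arrays numbered 2 and 0 to 9 without single arrays, with 0 without MYOSIN10 shRNA array 1 or 3 or scramble array 1 or 3 (19, 17, 17 and 18 at an unadjusted p under 0.05) and 9 without scramble array 2. Over all probe sets the 353 calls became 173 without a filter, 949 with array weights, 891 with the replicate block, 229 with 1 probe set per gene, 1755 without both arrays numbered 2 and 58 to 1468 without single arrays. MYO10 kept its fold change of -0.88 but not its call without a filter (adjusted p = 0.106) and without the variance trend (-0.88, adjusted p = 0.309), and ran from -1.12 to -0.75 without single arrays. The causes were not tested. Same-numbered arrays deviated together with correlations of 0.033, 0.12 and 0.013. The arrays numbered 2 correlated best with each other, while those numbered 1 and 3 did not correlate best with their own number. The numbers were therefore not taken as pairs, and a shared effect on the arrays numbered 2 was not tested. The 14 list genes named by the stated rule and PGD 201118_at kept their direction in all 17 alternatives. Members near 0 changed sign in some: SRXN1 225252_at ran from -0.05 to 0.07, TXNRD1 201266_at from -0.06 to 0.03 and GCLM 203925_at from -0.01 to 0.16.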

Other observations

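In probe sets of a few redox genes the arrays numbered 2 of both groups stood together against the other 4. This pattern was noticed in the values and not tested, and its share over all kept probe sets was not counted. TXNIP, the inhibitor of thioredoxin, read 10.69 on MYOSIN10 shRNA array 2 and 10.08 on scramble array 2, against 11.36 and 11.40 on the other knockdown arrays and 11.38 and 11.23 on the other scramble arrays. GCLM 203925_at and 234986_at were highest and SRXN1 225252_at lowest in each group on the arrays numbered 2. GCLM 236140_at did not share this, at 11.63 on MYOSIN10 shRNA array 2 and 11.52 on scramble array 2, against 11.93 and 11.47 on the other knockdown arrays and 11.54 and 11.61 on the other scramble arrays.

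Single probe sets of the ligase subunits, picked after their values were seen, differed in their order within groups. GCLC 202923_s_at was lowest on array 2 in both groups, at 11.12 with MYOSIN10 shRNA and 10.88 with scramble shRNA, where GCLM 203925_at was highest, at 12.95 and 12.99. In GCLC the arrays numbered 2 did not stand together against the others, as 11.12 lay above every scramble array. A difference between the subunits was not tested, and GCLM 236140_at did not share the order of 203925_at.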
